A study of Oryza sativa Japonica Group with 12 samples.

Results

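The rice chitinase genes *Cht1* to *Cht11* were followed across 3 parents and their 3 F1 hybrids. A gene was taken as a member where the symbol or a synonym in the gene annotation was Cht followed by a number up to 11. This gave 11 genes of the 23837 with a probe set of their own. Each was measured by 1 probe set. The annotation holds 12 genes of this name, and the remaining one, *Cht12*, had no probe set here. The synonyms cross in 2 cases, since *Cht8* is also listed as *Cht2* and *Cht9* as *Cht1*, and the names used here are those of the loci LOC4342115 (*Cht1*), LOC4338718 (*Cht2*), LOC4342114 (*Cht3*), LOC4336263 (*Cht4*), LOC4336265 (*Cht5*), LOC4329920 (*Cht6*), LOC4338720 (*Cht7*), LOC4349267 (*Cht8*), LOC4338719 (*Cht9*), LOC4325148 (*Cht10*) and LOC4331519 (*Cht11*).

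Chitinases cut chitin, a polymer of fungal cell walls and insect cuticles that plants themselves do not make. Many belong to the pathogenesis-related proteins, whose genes rise after infection or treatment with an elicitor, and others act in growth and development. Chitin fragments released by these enzymes are sensed at the rice cell surface by the LysM proteins CEBiP and CERK1, which start defence signalling.

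The plants were the F1 hybrids of 3 crosses, ‘CH7’ with ‘CH8’ (‘CH7/8’), ‘CH7’ with ‘CH9’ (‘CH7/9’) and ‘CH8’ with ‘CH9’ (‘CH8/9’), which show hybrid weakness, and their parents, the *japonica* varieties ‘CH9’ (‘Shinseonchalbyeo’), ‘CH8’ (‘Sanghaehyangheolua’) and ‘CH7’ (‘Aranghyangchalbyeo’). All were grown from seed in a greenhouse and taken whole at tillering, and no infection or elicitor is given for any line. Total RNA was hybridized to 12 Affymetrix arrays, 2 per line, and the methods state 3 independent plants per line, each the source of one RNA. The comparisons ask where the chitinase genes differed between parents, between a hybrid and its parents, and between a hybrid and the mid-parent, the mean of its parents on the log2 scale.

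Values are log2 of the deposited intensity. The arrays had medians between 3.45 and 3.64, lower quartiles between 2.25 and 2.51 and upper quartiles between 5.28 and 5.47. Replicate arrays correlated at 0.966 to 0.984 over all probe sets, and between 1314 probe sets in ‘CH7’ and 3388 in ‘CH7/8’ lay 2-fold or more apart between replicates. Of the genes that mark parts of the plant, the mean over 5 leaf genes lay between 5.19 and 6.80 and that over 3 root genes between 3.40 and 4.87, although the nitrate transporter gene *NRT2.1* stayed between line means of 1.53 and 1.63. The mean over 5 panicle genes lay between 1.94 and 2.43 on 11 arrays and at 3.24 on replicate 2 of ‘CH8/9’, and that over 6 glutelin genes of the endosperm between 1.74 and 2.15. Genes were called where limma's p, adjusted over all 54922 probe sets, was at most 0.05 and the difference at least 2-fold. In whole-plant RNA, fewer cells of a type and less RNA per cell cannot be told apart.

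*Cht11* and *Cht8* varied most among the lines. The range of line means was 2.66 for *Cht11*, 1.90 for *Cht8*, 1.24 for *Cht9*, 1.17 for *Cht4*, 1.12 for *Cht6* and 1.01 for *Cht5*. It was below 1 for the other 5 genes, and smallest, at 0.27, for *Cht2*. The median of these ranges was 1.01 over the 11 genes and 0.507 over all probe sets. In the moderated F test over the 6 lines, *Cht11* (adjusted p = 0.0172) and *Cht6* (adjusted p = 0.0176) were called, 2 of 11, against 1.77% of all probe sets, while *Cht8* did not pass (adjusted p = 0.0641). This call rested on few arrays: neither gene passed without either array of ‘CH7’ or without replicate 2 of ‘CH7/9’. Without replicate 1 of ‘CH9’ or of ‘CH8/9’, *Cht11* was the 1 gene that passed, and least squares without eBayes gave 0.

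**Figure D1:**
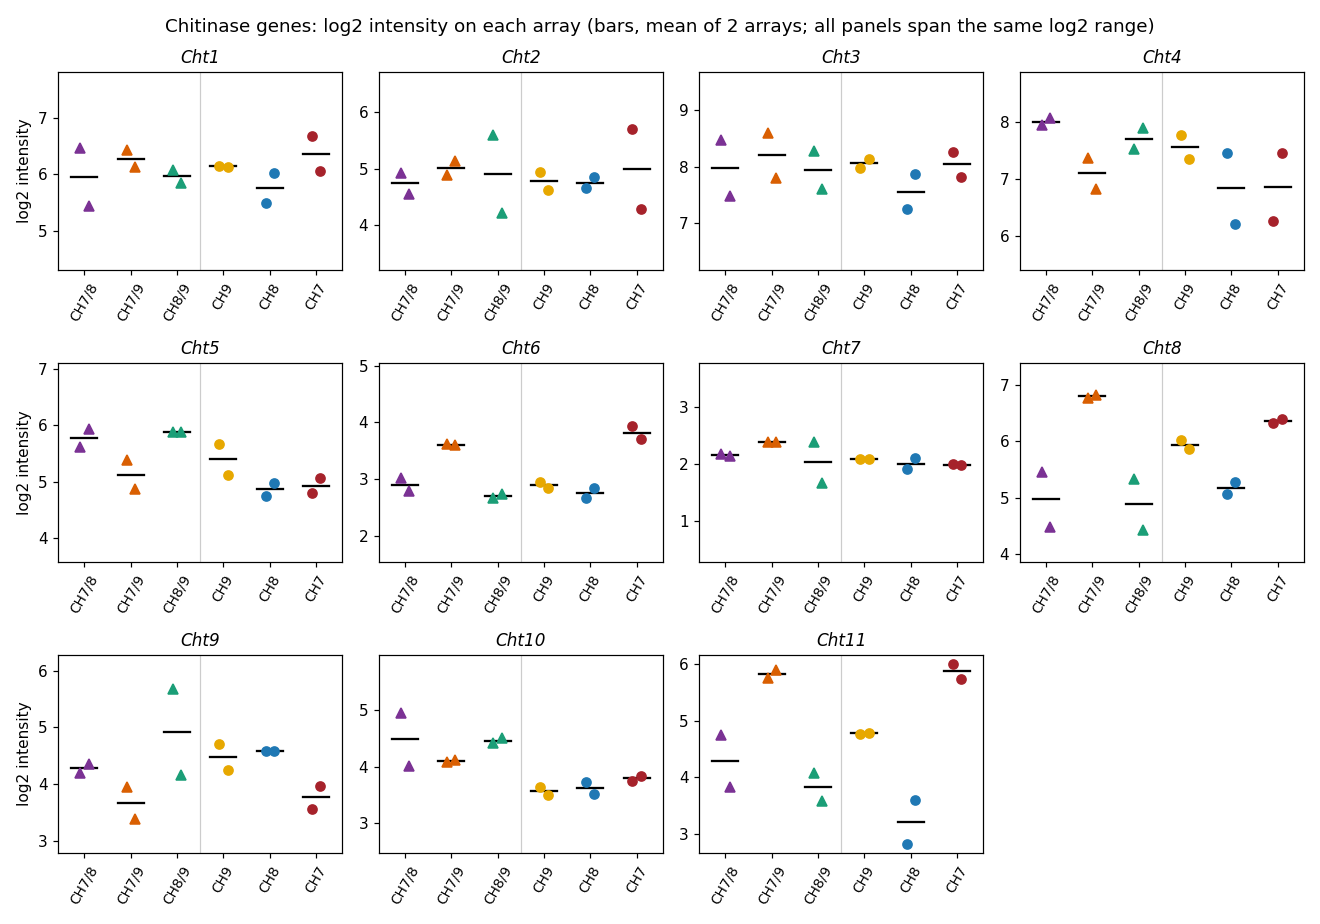
Log2 intensity of the 11 chitinase genes (vertical axis) on the 12 arrays, by line (horizontal axis, hybrids as triangles left of the parents as circles; points, arrays; bars, mean of 2 arrays). *Cht11* spans line means from 3.21 in ‘CH8’ to 5.87 in ‘CH7’, and *Cht2* has replicates 1.38 log2 units apart in ‘CH8/9’ and 1.41 in ‘CH7’.

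*Cht11* was the member with the largest difference between parents. Its log2 intensity was 4.77 and 4.79 in ‘CH9’ and 2.82 and 3.6 in ‘CH8’, against 6.0 and 5.74 in ‘CH7’. The 3 parents did not overlap, with ‘CH8’ lowest and ‘CH7’ highest. The share of all probe sets whose 3 parents do not overlap was not computed, so this is a description. The difference in ‘CH8’ relative to ‘CH7’ was −2.66 (SE 0.335, n = 2 arrays each), 6.33-fold lower, with an adjusted p of 0.00485 (limma). In ‘CH9’ it was −1.10 relative to ‘CH7’ (adjusted p = 0.246) and 1.57 relative to ‘CH8’ (adjusted p = 0.111), and neither passed. Of the ‘CH8’ arrays, 2.82 lay below the array medians of 3.45 to 3.64 and 3.6 lay among them, so the fold rests on low values. With a pseudocount of 16 the difference of ‘CH8’ from ‘CH7’ was −1.55 and kept its call (adjusted p = 0.00799). Without replicate 1 of ‘CH7’ the first difference was −2.53 and missed the threshold (adjusted p = 0.0530). Without either array of ‘CH7/8’, which enters only the shared estimate of the spread, the difference of ‘CH9’ from ‘CH8’ passed (adjusted p = 0.0487).

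*Cht6* was also lower in ‘CH8’ than in ‘CH7’, at low intensity, with a mean over all arrays of 3.11, below the lowest array median of 3.45. It had 2.95 and 2.83 in ‘CH9’ and 2.66 and 2.84 in ‘CH8’, against 3.93 and 3.71 in ‘CH7’. The ‘CH7’ arrays lay above all others of the parents, and those of ‘CH8’ and ‘CH9’ overlapped. The share of all probe sets with ‘CH7’ apart in this way was not computed. The difference of ‘CH8’ from ‘CH7’ was −1.07 (SE 0.149, adjusted p = 0.00745), 2.1-fold lower, and that of ‘CH9’ from ‘CH7’ was −0.93 (adjusted p = 0.0473), short of 2-fold. The first difference fell short of 2-fold after median centring (−0.997, adjusted p = 0.0115) and with a pseudocount of 16 (−0.41, adjusted p = 0.00854). It also lost its call without replicate 1 of ‘CH7’ (−0.96, adjusted p = 0.0754) or replicate 1 of ‘CH8’ (−0.98, adjusted p = 0.0327), and in a fit on only the 4 arrays of these lines (adjusted p = 0.0612).

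*Cht8* had a difference of similar size that did not pass. It had 6.01 and 5.85 in ‘CH9’ and 5.07 and 5.27 in ‘CH8’, against 6.32 and 6.39 in ‘CH7’. The 3 parents did not overlap, in the same order as for *Cht11*, and here too the share of all probe sets was not computed. The difference of ‘CH8’ from ‘CH7’ was −1.18 (SE 0.342, 95% interval −1.96 to −0.41, adjusted p = 0.0899). It passed in a fit on only the arrays of these lines (adjusted p = 0.0470) and without either array of ‘CH7/8’ (adjusted p = 0.0404). Relative to ‘CH8’, *Cht8* in ‘CH9’ differed by 0.77 (adjusted p = 0.576).

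Across the family, 2 of 11 genes were called between ‘CH8’ and ‘CH7’, both lower in ‘CH8’, where 3.69% of all probe sets were called. An unadjusted p under 0.05 was found for 3 of the 11, against 20.6% of all probe sets. Of the 11 genes, 9 had a negative estimate there, and the median difference over all 11 was −0.25, against −0.05 over all probe sets. The opposite sign was seen for *Cht9*, at 4.58 and 4.59 in ‘CH8’ and 3.56 and 3.96 in ‘CH7’, a difference of 0.82 (adjusted p = 0.330). In ‘CH9’ relative to ‘CH7’, 0 of 11 were called (0.375% of all probe sets), 2 had an unadjusted p under 0.05 (12.6% of all probe sets), and the median was −0.22, against −0.05 over all probe sets. In ‘CH9’ relative to ‘CH8’, 0 of 11 were called (0.586% of all probe sets), 1 had an unadjusted p under 0.05 (8.83% of all probe sets), and the median was 0.38, against 0.01 over all probe sets. Least squares without eBayes moved none of these 3 counts.

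**Figure D2:**
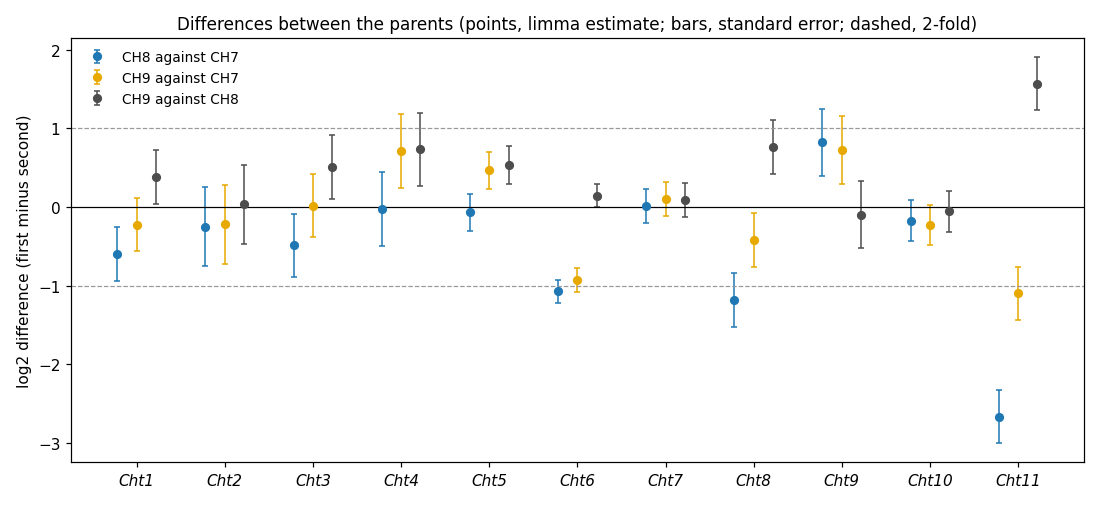
Log2 differences of the 11 chitinase genes between parents (vertical axis; points, limma estimates over 2 arrays per line; bars, standard errors; dashed lines, 2-fold). *Cht11* stands at −2.66 in ‘CH8’ against ‘CH7’, and *Cht6*, near −1 in both comparisons with ‘CH7’, has the smallest standard error, 0.149.

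No chitinase gene was called between a hybrid and either parent. The share of all probe sets called was 0.228% for ‘CH7/8’ against ‘CH7’, 0.106% against ‘CH8’, 0.0473% for ‘CH7/9’ against ‘CH7’, 0.0346% against ‘CH9’, 0.151% for ‘CH8/9’ against ‘CH8’ and 0.100% against ‘CH9’. The number of the 11 genes with an unadjusted p under 0.05 was 6 for ‘CH7/8’ against ‘CH7’, 4 against ‘CH8’, 0 for ‘CH7/9’ against ‘CH7’, 3 against ‘CH9’, 2 for ‘CH8/9’ against ‘CH8’ and 3 against ‘CH9’. Over all probe sets that share lay between 6.47% and 12%. Least squares without eBayes also called 0 of these differences. These comparisons share the parents' and the hybrids' arrays, so they are not independent of each other.

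The hybrids of ‘CH8’ were near ‘CH8’ in *Cht8*. ‘CH7/8’ had 5.46 and 4.49 and ‘CH8/9’ had 5.34 and 4.44, against 5.07 and 5.27 in ‘CH8’, whereas ‘CH7/9’ had 6.77 and 6.81. The 2 hybrids with a ‘CH8’ parent overlapped ‘CH8’, with replicates 0.97 and 0.90 log2 units apart, and ‘CH7/9’ lay above every other array. Relative to ‘CH7’, *Cht8* in ‘CH7/8’ differed by −1.38 (SE 0.342, adjusted p = 0.190), and relative to ‘CH9’, *Cht8* in ‘CH8/9’ differed by −1.05 (adjusted p = 0.690). In ‘CH7/9’ it differed by 0.44 from ‘CH7’ (adjusted p = 0.718) and by 0.86 from ‘CH9’ (adjusted p = 0.391).

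*Cht11* in the hybrids took a place between their parents. ‘CH7/8’ had 4.75 and 3.84, ‘CH8/9’ had 4.07 and 3.58, and ‘CH7/9’ had 5.75 and 5.90. In order of line means, ‘CH7’ (5.87) and ‘CH7/9’ (5.83) came first with overlapping arrays, then ‘CH9’ (4.78), ‘CH7/8’ (4.29), ‘CH8/9’ (3.83) and ‘CH8’ (3.21). ‘CH7/8’ overlapped ‘CH8/9’, and ‘CH8/9’ overlapped ‘CH8’, so these neighbours were not separated by the arrays. The difference of ‘CH7/8’ from ‘CH7’ was −1.58 (SE 0.335, adjusted p = 0.143). *Cht6* followed the same order at its upper end, with 3.61 and 3.6 in ‘CH7/9’, but ‘CH7/8’ (3.02 and 2.78) and ‘CH8/9’ (2.67 and 2.73) overlapped ‘CH8’. Its difference in ‘CH7/8’ relative to ‘CH7’ was −0.92 (SE 0.149, adjusted p = 0.0627).

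The estimates for ‘CH7/8’ depended on both of its arrays, which lay far apart for several genes. Replicate 1 was higher than replicate 2 by 0.91 for *Cht11*, 0.97 for *Cht8*, 1.01 for *Cht1*, 0.98 for *Cht3* and 0.93 for *Cht10*. Without replicate 1, the difference of ‘CH7/8’ from ‘CH7’ was −2.04 for *Cht11*, −1.86 for *Cht8* and −1.04 for *Cht6*. Without replicate 2 these were −1.12, −0.89 and −0.80. *Cht10* in ‘CH7/8’ differed from ‘CH8’ by 0.40 without replicate 1 and by 1.33 without replicate 2. A lone array of ‘CH7/8’ is assumed to vary like the other lines, so only the sizes of the differences are given here. The leaf genes moved the same way between these arrays, with a mean over 5 genes of 6.49 on replicate 1 and 5.89 on replicate 2. So did the root (3.80 and 3.42), panicle (2.09 and 1.94) and endosperm genes (1.92 and 1.76). The senescence genes went the other way (6.69 and 7.14). The part of these marker genes in the difference was not tested.

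*Cht10* was the gene whose line means lay above both parents in all 3 hybrids. It had 4.95 and 4.01 in ‘CH7/8’, 4.08 and 4.11 in ‘CH7/9’ and 4.42 and 4.50 in ‘CH8/9’, against 3.63 and 3.50 in ‘CH9’, 3.73 and 3.51 in ‘CH8’, and 3.75 and 3.83 in ‘CH7’. The parental arrays lay near the array medians of 3.45 to 3.64, at low intensity. The lowest hybrid array, 4.01, lay above the highest parental array, 3.83. Among the 11 genes it was the one whose hybrid and parental arrays did not overlap, as seen for 0.113% of all probe sets. Over the 6 arrays each, the difference of hybrids from parents was 0.69 (95% interval 0.35 to 1.03), 1.61-fold, and did not pass (adjusted p = 0.655, limma). In this comparison, added after the values were seen, 0 of 11 genes were called, against 0.00910% of all probe sets, and 2 had an unadjusted p under 0.05, against 4.87%. The distance from the mid-parent was 0.77 in ‘CH7/8’ (adjusted p = 0.999), 0.42 in ‘CH7/9’ (adjusted p = 0.585) and 0.87 in ‘CH8/9’ (adjusted p = 0.569). The difference over hybrids and parents ranged from 0.53 to 0.84 when single arrays were left out, and the distance of ‘CH7/8’ from the mid-parent from 0.31 to 1.24.

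*Cht5* and *Cht4*, which lie side by side on chromosome 4 with no protein-coding gene between them, had their highest values in the hybrids of ‘CH8’. *Cht5* had 5.62 and 5.93 in ‘CH7/8’ and 5.88 and 5.88 in ‘CH8/9’, against 5.67 and 5.12 in ‘CH9’, 4.75 and 4.98 in ‘CH8’ and 4.80 and 5.06 in ‘CH7’. Each of these hybrids lay above all 4 arrays of its own parents, while ‘CH7/9’, at 5.38 and 4.88, lay within the range of its parents. Other members also lay above all parental arrays: *Cht4*, *Cht7* and *Cht10* in ‘CH7/8’, *Cht10* in ‘CH8/9’, and *Cht7*, *Cht8* and *Cht10* in ‘CH7/9’. The share of all probe sets that do so was not computed, so this is a description. *Cht4* had 7.95 and 8.07 in ‘CH7/8’, against 7.46 and 6.21 in ‘CH8’ and 6.25 and 7.47 in ‘CH7’, so its parental replicates lay 1.25 and 1.22 log2 units apart. ‘CH8/9’, at 7.53 and 7.90, overlapped ‘CH9’ at 7.77 and 7.36, and ‘CH7/9’ had 7.38 and 6.82. The distance of ‘CH7/8’ from the mid-parent was 0.88 for *Cht5* (SE 0.206, adjusted p = 0.877) and 1.16 for *Cht4* (SE 0.406, adjusted p = 0.999), and neither passed. In ‘CH8/9’ the distance was 0.75 for *Cht5* (adjusted p = 0.583) and 0.51 for *Cht4* (adjusted p = 0.796).

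No chitinase gene was called between a hybrid and its mid-parent, where 0.00546% of all probe sets were called for ‘CH7/8’, 0.00182% for ‘CH7/9’ and 0.0164% for ‘CH8/9’. An unadjusted p under 0.05 was found for 5 of the 11 genes in ‘CH7/8’ (4.13% of all probe sets), for 0 in ‘CH7/9’ (9.34%) and for 2 in ‘CH8/9’ (7.36%). By line means, 4 genes lay above both parents, 5 between them and 2 below both in ‘CH7/8’, against 26.3%, 47.5% and 26.1% of all probe sets. In ‘CH7/9’ 5 lay above, 5 between and 1 below, against 44.2%, 35.2% and 20.7%. In ‘CH8/9’ 5 lay above, 4 between and 2 below, against 34.6%, 31.7% and 33.7%. The line mean of *Cht8* was below both parents in ‘CH7/8’ (−0.78 from the mid-parent, SE 0.296) and in ‘CH8/9’ (−0.66), and above both in ‘CH7/9’ (0.65). In ‘CH7/8’ and ‘CH8/9’ this rested on replicate 2, since replicate 1, at 5.46 and 5.34, lay above both ‘CH8’ arrays. The distance of ‘CH7/8’ was −1.27 to −0.30 when single arrays were left out. The difference between these distances was −1.43 for ‘CH7/8’ against ‘CH7/9’ (adjusted p = 0.516) and 1.31 for ‘CH7/9’ against ‘CH8/9’ (adjusted p = 0.281), and neither passed.

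**Figure D3:**
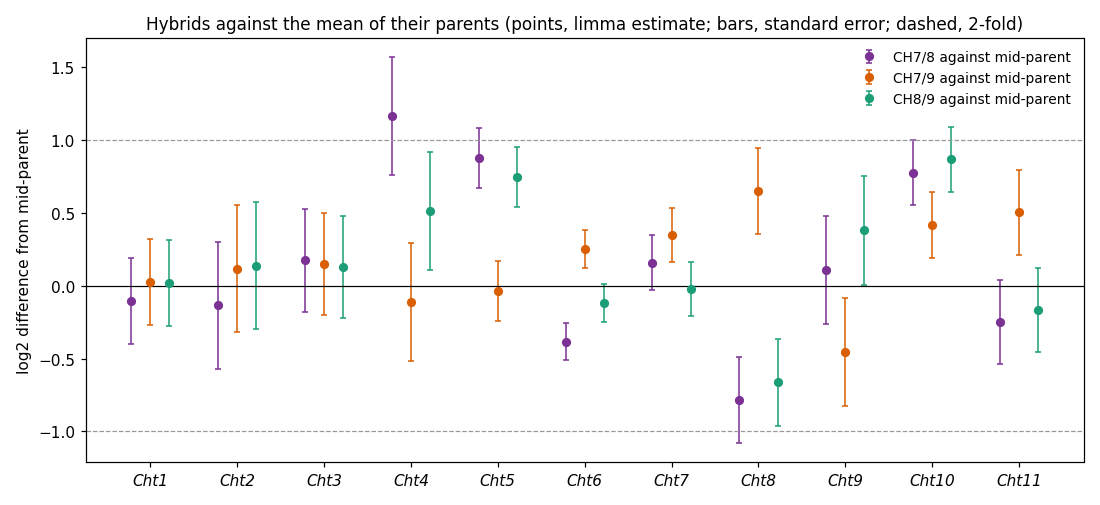
Log2 distance of each hybrid from the mean of its parents (vertical axis) for the 11 chitinase genes (points, limma estimates over 2 arrays of the hybrid and 4 of its parents; bars, standard errors; dashed lines, 2-fold). *Cht10* lies above 0 in all 3 hybrids, and *Cht8* lies below 0 in the 2 hybrids of ‘CH8’ and above it in ‘CH7/9’; none of these distances was called.

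Since *Cht11*, *Cht8* and *Cht6* were low wherever ‘CH8’ was a parent, the lines that carry the ‘CH8’ genome (‘CH7/8’, ‘CH8/9’ and ‘CH8’) were set against those that do not (‘CH7/9’, ‘CH9’ and ‘CH7’), 6 arrays each. This grouping was added after the values were seen and uses the same arrays as the comparison of the parents, so it is no independent evidence. *Cht11* lay between 2.82 and 4.75 (median 3.72) with the ‘CH8’ genome and between 4.77 and 6.0 (median 5.75) without it. *Cht8* lay between 4.44 and 5.46 (median 5.17) with it and between 5.85 and 6.81 (median 6.35) without it. Neither gene overlapped between the groups, as was the case for 2.12% of all probe sets. *Cht6* overlapped, at 2.66 to 3.02 with ‘CH8’ and 2.83 to 3.93 without, with the ‘CH9’ arrays at 2.95 and 2.83. The differences were −1.72 for *Cht11* (95% interval −2.16 to −1.28, adjusted p = 0.00246), 3.29-fold lower, and −1.35 for *Cht8* (−1.8 to −0.90, adjusted p = 0.00754), 2.55-fold lower. These intervals and p-values rest on replicate arrays within lines and leave out the spread among the lines of a group. *Cht6* differed by −0.66 (adjusted p = 0.00475), short of 2-fold. Thus 2 of 11 genes were called, against 1.96% of all probe sets. Without any one of the 12 arrays, the differences lay between −1.87 and −1.57 for *Cht11* and between −1.51 and −1.19 for *Cht8*, and each kept its call. Least squares without eBayes kept that of *Cht11* (adjusted p = 0.0306) and not that of *Cht8* (adjusted p = 0.0525).

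**Figure D4:**
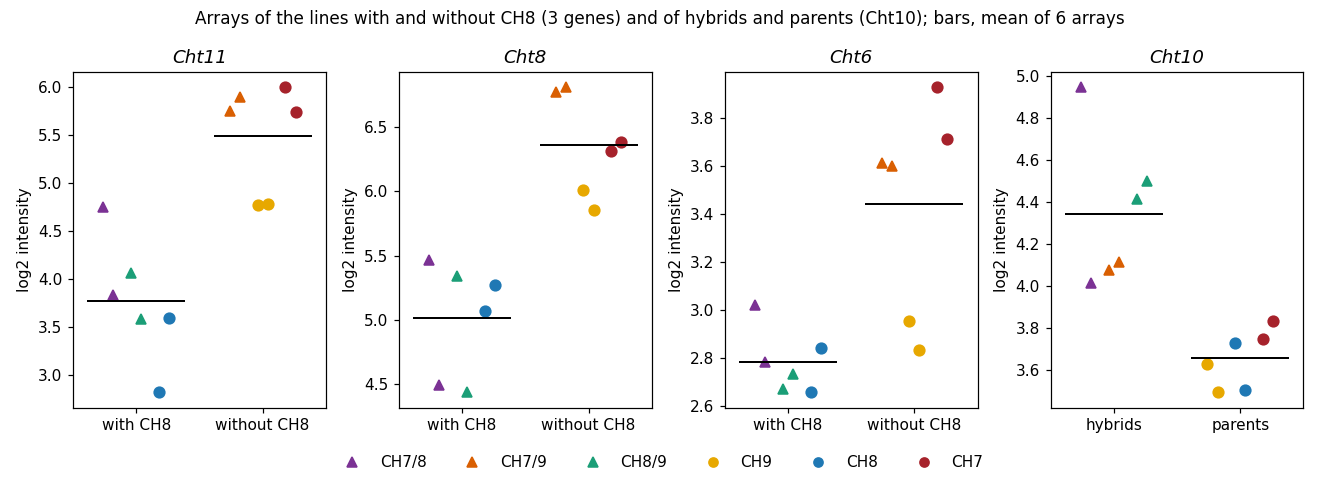
Log2 intensity (vertical axes, one scale per panel) of *Cht11*, *Cht8* and *Cht6* on the 6 arrays of lines with the ‘CH8’ genome, left, and the 6 without, right, and of *Cht10* in hybrids, left, and parents, right (triangles, hybrid arrays; circles, parental arrays; bars, mean of 6 arrays). The groups do not overlap for *Cht11*, *Cht8* and *Cht10*, and *Cht6* is low in ‘CH9’ as well.

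The same grouping by the other parents gave fewer differences. With ‘CH7’ as a parent, *Cht11* was higher by 1.39 (SE 0.194, adjusted p = 0.0103), at 3.84 to 6.0 in these lines against 2.82 to 4.79 in the lines without, and it was the 1 gene of 11 called, against 1.10% of all probe sets. The call of *Cht11* was lost with a pseudocount of 16 (0.85, adjusted p = 0.0119) and with least squares without eBayes (adjusted p = 0.0699). *Cht6* was higher by 0.66 (adjusted p = 0.00811), short of 2-fold. Lines with ‘CH7’ and lines with ‘CH8’ share ‘CH7/8’, and with 3 parents one grouping is not free of the other. With ‘CH9’ as a parent, 0 of 11 genes were called, against 0.186% of all probe sets, and the smallest adjusted p of *Cht11* and *Cht8* was 0.943. Marker genes of leaf, root and senescence were compared in the same groups by ‘CH8’. The mean over 5 leaf genes was 5.19 to 6.49 (median 5.85) with ‘CH8’ and 5.96 to 6.80 (median 6.35) without it, that over 3 root genes 3.40 to 3.94 and 3.67 to 4.87, and that over the 3 senescence genes *SGR*, *NYC1* and *NOL* 6.69 to 7.41 and 6.57 to 7.15. All these ranges overlapped, and none of the 5 leaf, 3 root or 3 senescence genes was called between lines with and without ‘CH8’ or between ‘CH8’ and ‘CH7’. Leaf means were highest in ‘CH7/9’ (6.71) and lowest in ‘CH8/9’ (5.38), as was *Cht8*. The part of these genes in the chitinase differences was not tested.

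In the 5 genes not yet described in full, *Cht1*, *Cht2*, *Cht3*, *Cht7* and *Cht9*, the largest gap between replicates exceeded the range of line means. This was also the case for *Cht4* (a gap of 1.25 against a range of 1.17) and *Cht10* (0.93 against 0.92). None of these 7 genes passed the F test, with an adjusted p of 0.465 for *Cht4* and 0.203 for *Cht10*, nor did *Cht5* (0.141). *Cht3* lay between 7.24 and 8.60 and *Cht1* between 5.45 and 6.67, each with its lowest line mean in ‘CH8’. *Cht2* ranged from 4.21 to 5.71, and its replicates were 1.38 apart in ‘CH8/9’ (5.60 and 4.21) and 1.41 apart in ‘CH7’ (5.71 and 4.29), wider than any difference between its line means. *Cht9* had 5.67 and 4.15 in ‘CH8/9’, 3.95 and 3.39 in ‘CH7/9’ and 3.56 and 3.96 in ‘CH7’, and its F test did not pass (adjusted p = 0.407). *Cht7* lay between 1.66 and 2.40, and its mean, 2.11, was below the lowest of the arrays' lower quartiles, 2.25. The adjusted p of the F test was 0.749 for *Cht1*, 0.991 for *Cht2*, 0.842 for *Cht3* and 0.718 for *Cht7*.

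Neighbouring chitinase genes did not always move together. *Cht1* and *Cht3*, adjacent on chromosome 6, correlated at r = 0.88 (Spearman's rho 0.83) over the 12 arrays and at 0.90 in their deviations from the line means, which come from 6 pairs of replicates. *Cht4* and *Cht5* correlated at 0.75 (rho 0.79), with 0.95 over the 6 line means and 0.35 in the deviations. On chromosome 5, *Cht2*, *Cht9* and *Cht7* follow each other, and *Cht2* and *Cht9* correlated at 0.13 (rho −0.02). That pair had −0.62 over the line means and 0.42 in the deviations. *Cht7* and *Cht9* correlated at 0.11 over the arrays and 0.83 in the deviations, and *Cht2* and *Cht7* at 0.56 and 0.70. Among genes on different chromosomes, *Cht11* correlated at 0.91 with *Cht6* (rho 0.86) and at 0.88 with *Cht8* (rho 0.92), and *Cht6* with *Cht9* at −0.74 (rho −0.70). Without the 2 arrays farthest from the median of the first gene of a pair, r was 0.77 for *Cht1* and *Cht3*, 0.76 for *Cht4* and *Cht5*, 0.88 for *Cht6* and *Cht11* and 0.92 for *Cht8* and *Cht11*. Over the 55 pairs r ranged from −0.74 to 0.91 with a median of 0.15. The arrays share lines and hybridization, near-identical genes can share probes, and these values are a description.

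**Figure D5:**
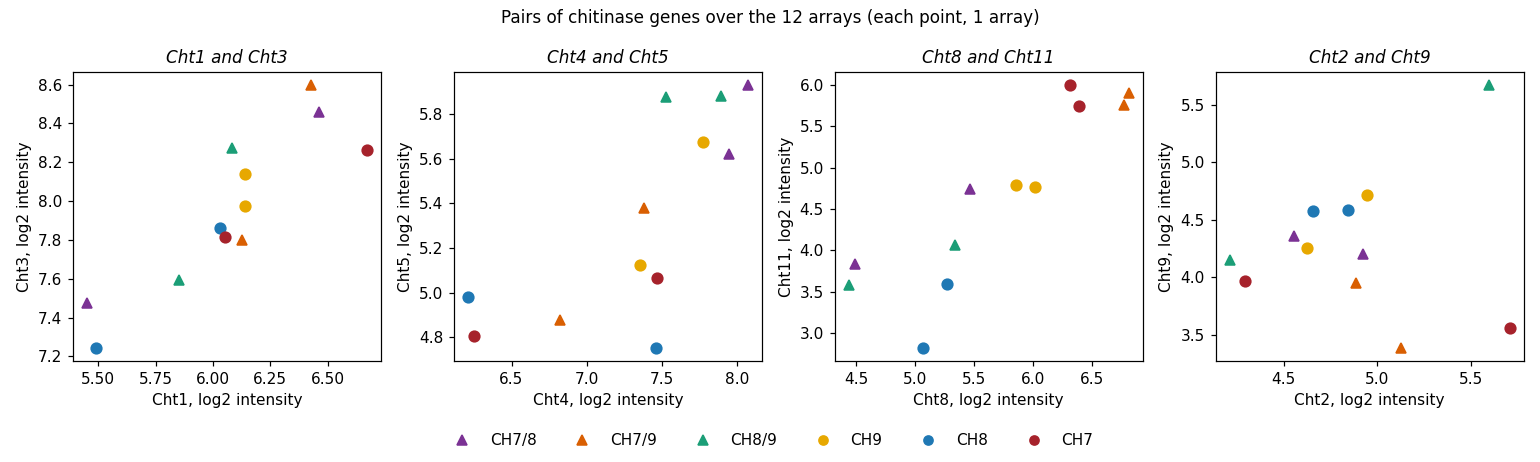
Log2 intensity of pairs of chitinase genes on the same array (both axes; each point, 1 array; triangles, hybrids; circles, parents). *Cht1* and *Cht3* (r = 0.88) and *Cht8* and *Cht11* (r = 0.88) lie close to a line, *Cht4* and *Cht5* less closely (r = 0.75), and *Cht2* and *Cht9* not (r = 0.13).

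Among 2727 genes with a name of their own, those most like *Cht11* over the 12 arrays were *OsPP2C77*, named as a protein phosphatase 2C (r = 0.975), the metallothionein gene *OsMT-I-1a* (listed as *ERR26*, 0.974), the Argonaute gene *AGO18* (0.961), the MAP kinase gene *BIMK2* (0.954) and *OsITPK3*, named as an inositol phosphate kinase (0.952). Their differences of ‘CH8’ from ‘CH7’ were −2.03, −2.05, −2.34, −1.46 and −2.25. Those most like *Cht8* were *BIMK2* (0.927), *panC* (0.920), the thioredoxin gene *OsTrxh1* (0.918), *OsUGE-3* (0.918) and *PSD2* (0.918). With 12 arrays in 6 lines and 2727 genes searched, values of this size carry no test.

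Genes of chitin perception and defence gave a mixed picture in ‘CH8’ relative to ‘CH7’. Of 12 measured genes of chitin signalling, 0 were called, 6 had a positive estimate, and the median difference was 0.12, against −0.05 over all probe sets. The receptor gene *CEBIP* had line means of 4.91 in ‘CH7/8’, 4.34 in ‘CH7/9’, 5.55 in ‘CH8/9’, 4.50 in ‘CH9’, 4.52 in ‘CH8’ and 3.93 in ‘CH7’ (F test, adjusted p = 0.213). *LYP4*, another LysM receptor gene, had 3.77, 2.54, 4.65, 3.68, 3.64 and 2.68 in the same order of lines (adjusted p = 0.280). The list of pathogenesis-related genes matched 16 genes by name or synonym, of which 2, *PBZ1* and *RIXI*, were kept. The rest were left out as matches to other genes, and neither of the 2 was called. *PBZ1*, a gene of the PR10 type that is induced by probenazole, differed by −1.67 in ‘CH8’ relative to ‘CH7’ (SE 0.701, adjusted p = 0.219), and *RIXI*, a xylanase inhibitor related to chitinases, by −0.44 (adjusted p = 0.583).

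Of 9 regulators of defence, 1 was called between ‘CH8’ and ‘CH7’, where 3.69% of all probe sets were called. *NH1*, the rice counterpart of the salicylic acid coactivator gene *NPR1*, was lower in ‘CH8’, with line means of 5.77 in ‘CH8’ and 7.26 in ‘CH7’ (difference −1.49, SE 0.242, adjusted p = 0.0135). *NH3* had line means of 6.16 in ‘CH8’ and 7.56 in ‘CH7’ (adjusted p = 0.107), and *WRKY76* had 4.03 and 4.88 in the same lines (adjusted p = 0.322). The sign was not shared by the list, since 4 of the 9 genes had a positive estimate. The largest of these was *WRKY71*, at 0.80 (adjusted p = 0.209). In lines with ‘CH8’ relative to lines without, *NH3* was the 1 of these 9 genes called, lower, against 1.96% of all probe sets. Of 34 genes of jasmonate and ethylene, 2 were called higher in ‘CH8’ than in ‘CH7’ and 1 lower, against 3.69% of all probe sets. *ACS1*, which encodes an enzyme of ethylene synthesis, was higher by 3.15 (adjusted p = 0.0209) and the lipoxygenase gene *LOX5* by 1.58 (adjusted p = 0.0246), while the lipoxygenase gene *LOX9* differed by −1.70 (adjusted p = 0.0400). The lists' medians in ‘CH8’ relative to ‘CH7’ were −0.45 for defence regulators and 0.21 for jasmonate and ethylene. In lines with ‘CH8’ relative to lines without, 1 gene of jasmonate and ethylene was called higher (*ACO1*) and 2 lower (*LOX9* and *JAZ2*), against 1.96% of all probe sets. Of the 4 other genes annotated as chitinases or Chib3H proteins, *Rcb4* lay between 5.32 and 7.93, *Chib3H-h* between 1.06 and 4.49, *RIXI* between 1.93 and 3.07 and LOC4351188 between 1.18 and 1.55, and 0 were called in any comparison.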

How the data were processed

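The intensity values deposited for the 12 Affymetrix arrays are linear. RMA with background subtraction and quantile normalization is named in the methods, and MAS5 in the submitters' notes (version not given in the sources used here). Detection calls were not used here. All values were above 0 (minimum 1.58), and log2 was taken with no pseudocount. The number of arrays limits the precision.

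Names came from the array platform's annotation, updated through the RefSeq genes of ASM3414082v1. Of 54922 probe sets, 24080 had 1 gene, 95 several and 30747 no listed gene. The probe set with the highest mean stood for a gene. Gene order came from the RefSeq table.

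A mean per line was fitted over all 12 arrays with limma 3.58.1 in R 4.3.3, with eBayes and Benjamini-Hochberg adjustment over all probe sets. All 11 members are named. From each of 9 lists, up to 4 genes called in one of the 12 comparisons are named, or the 2 with the largest range of line means. The members and lists were chosen with earlier results of these data known. Synonyms that matched other genes were removed from the lists after the annotation was seen. The groupings by parental genome and of hybrids against parents were added after the data were seen. Their intervals and p-values take the error from replicate arrays within lines, so the spread among the lines of a group does not enter.

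Alternatives were quantile normalization, median centring, a pseudocount of 16, leaving out dim probe sets, array weights, a spread that depends on the mean, fits on only the lines compared, least squares without eBayes, the replicate number as a block, averaging all probe sets of a gene, a 1.5-fold threshold and leaving out each array.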

Additional observations from a re-analysis of the deposited data

How the results depend on the processing

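For 25 single differences, each under those alternatives that give it a value, 519 values kept direction and side of the threshold, 9 lost a call, 9 gained one and 0 turned direction. Many of these values could not turn direction. Alternatives that change only the spread, averaging over 1 probe set, and leaving out an array of a line not compared return the same estimate. A 1.5-fold threshold was applied to the counts only. The 2 calls between parents became 1 after median centring, with a pseudocount of 16 and without dim probe sets (the filter removed *Cht6* and *Cht7*, so *Cht6* had no value there), and 0 to 4 when single arrays were left out. The 0 calls between a hybrid and a parent became 0 to 3, the 2 calls in the F test 0 to 4, and the 3 calls between lines with and without a parent's genome 3 to 4. The counts of 0 for the mid-parent and for hybrids against parents stayed at 0 in each of these. Least squares without eBayes gave 1 call between lines with and without a parent's genome and 0 in the F test, since *Cht8* with ‘CH8’ (adjusted p = 0.0525) and *Cht11* with ‘CH7’ (adjusted p = 0.0699) missed the threshold. A pseudocount of 16 brought that of *Cht11* with ‘CH7’ to 0.85, short of 2-fold. A 1.5-fold threshold gave 5 calls between those lines. With a single array left out, the share of all probe sets called was not computed beside these counts. Apart from the construction of these alternatives, the cause was not tested.

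The replicate number as a block left every count as it was, at 2 between parents, 0 against a parent, 0 against the mid-parent, 3 by parental genome, 0 for hybrids against parents and 2 in the F test. The numbers did not pair the samples, since deviations of same-numbered arrays correlated at −0.33 to 0.20 over 15 pairs of lines. The fit on the lines compared has no separate value for groupings of all 6 lines. With 2 arrays per line, a missed threshold does not show equal levels.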
